A study of Bos taurus with 40 samples.

Results

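ALG5 and EIF2S3 are the members described here. They were measured by 2 spots among the 10184 cDNA spots of a bovine array, in extra-embryonic tissue of elongating conceptuses recovered before implantation. Both were selected on these same arrays. The study paired the accession BF040851 with ALG5, which it listed for SCNT High against IVP, and the accession BF043574 with EIF2S3, which it listed for SCNT Med against IVP. The differences in those contrasts are therefore given as descriptions, with no test, and so are all other differences that share a group with them.

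The 40 arrays hold 1 conceptus each. The IVP group (10 conceptuses) came from in vitro produced embryos, made by fertilisation with the sperm of 1 bull. Somatic cell nuclear transfer (SCNT) replaces the nucleus of an oocyte with that of a body cell, here an adult ear skin fibroblast. SCNT High (10 conceptuses) came from donor line 5538, SCNT Med (10) from line 7711 and SCNT Low (10) from line 0029. Each line stands for 1 Holstein heifer, so that the effect of a group and that of an animal cannot be told apart. All conceptuses developed in recipient cows after transfer of several blastocysts per cow. The labels do not say which conceptuses shared a recipient, and the standard errors and tests below treat the conceptuses as independent. All SCNT conceptuses were female by origin, the labels do not give the sex of each IVP conceptus, and the part of sex in the differences was not tested here. Conceptuses from artificial insemination were not analysed here.

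ALG5 is the enzyme of the endoplasmic reticulum that makes dolichyl-phosphate glucose. This is the donor of the glucose residues that complete the oligosaccharide to be attached to asparagine in new glycoproteins. A fully glucosylated oligosaccharide is transferred best, and trimming of its glucoses then takes the protein through the calnexin and calreticulin folding cycle. EIF2S3 is the gamma subunit of the translation initiation factor eIF2. It binds GTP and the initiator methionyl-tRNA and brings them to the small ribosomal subunit, and phosphorylation of the alpha subunit of eIF2 slows initiation under stress. The elongating trophoblast of ruminants secretes large amounts of proteins, interferon tau among them. In the RefSeq annotation of ARS-UCD2.0, ALG5 (gene 506566) lies on chromosome 12 and EIF2S3 (gene 512350) on chromosome X.

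The letters of the spotted cDNA inserts were not used here. The study listed primers for quantitative PCR beside both accessions, and these primers are shown as listed. They were not aligned to an insert or a transcript here. They are given 5′ to 3′, in lower case throughout, with no part marked.
ALG5 forward: tgccacagcttcatcgacat
ALG5 reverse: ggcaaccgtttttcttcattg
EIF2S3 forward: tggaacaaaaattgaccccac
EIF2S3 reverse: tgtgcgtacaccaagaagtcg
The primers are 20 to 21 bases long, with a GC content between 42.9% and 52.4%. PCR values were not analysed here.

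A level is the log2 of the mean brightness of a spot, minus the mean of the same quantity over the cDNA spots of that array, and a level above 0 is thus brighter than that mean. Each gene had 1 spot per array, and the number of arrays limits the precision. The median cDNA spot of an array was 4.85 to 8.99 times as bright as its local background. The ALG5 spot was 8.16 to 18.3 times as bright as its background, with a median of 13.2, and the EIF2S3 spot 3.45 to 16.9 times, with a median of 6.90. Over the 40 arrays the mean level was 0.59 for ALG5 and -0.84 for EIF2S3, at the 73.0th and 36.4th percentiles of all cDNA spots. Such percentiles order spots and not transcripts, because the brightness of a spot also depends on its insert. The arrays were quantified in 3 sessions, set apart by the dates recorded with them. Of the IVP arrays, 7 fell in session 1 and 3 in session 2, and the SCNT Med arrays were divided in the same way. SCNT High had 3, 3 and 4 arrays and SCNT Low 3, 5 and 2 in the 3 sessions. Arrays BC250 (SCNT Low), BC30 (SCNT Med) and BF188 (IVP) stood farthest from their group means over all cDNA spots, with root mean square deviations of 1.02, 0.96 and 0.81 on the log2 scale, and no other array exceeded 0.74. Some of the differences that these arrays moved, but not all, are also given without them.

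Each array carries a spot of water as a blank, and ALG5 was brighter than this blank on 40 of 40 arrays. To exceed water was usual, as 7735 to 9907 of the 10184 cDNA spots did so on an array. In IVP, the level of ALG5 ran from 0.44 on BF188 through a median of 0.99 to 1.32 on BF189. In SCNT High, it ran from -0.06 on BC252 through a median of 0.21 to 0.83 on BC242. IVP thus had the higher median, and the groups overlapped between 0.44 and 0.83. In SCNT Med, the level of ALG5 ran from -0.70 on BC158 through a median of 0.68 to 1.02 on BC183. In SCNT Low, it ran from -0.57 on BC250 through a median of 0.70 to 1.53 on BCSD80. In both groups the low end was set by few arrays, BC158 and BC30 (-0.38) in SCNT Med and BC250 alone in SCNT Low, where the next array lay at 0.32.

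The group means of ALG5, from high to low, stood in the order IVP, SCNT Low, SCNT Med and SCNT High. In that order, they were 0.95 ± 0.24, 0.66 ± 0.57, 0.45 ± 0.58 and 0.31 ± 0.31 (mean ± SD, n = 10 each). Neighbours in this order did not differ beyond their spread, as their means lay 0.30, 0.21 and 0.14 apart against pooled SDs of 0.44, 0.57 and 0.46. SCNT High lay below IVP by more than the pooled SD of 0.28, with a difference of -0.64 (standard error 0.13), or 1.56-fold lower, and of -0.42 with normexp background correction. That correction adds an offset of 50 to each signal, which by itself narrows log2 differences, most of all for dim spots. All 10 SCNT High arrays lay below the IVP mean, and 6 of them below every IVP array. This is the contrast that chose the probe, and 1.24% of all cDNA probes also had all 10 SCNT High arrays below the IVP mean. SCNT Med differed from IVP by -0.51 (standard error 0.20), with 9 of 10 arrays below the IVP mean. With single arrays left out, this difference ran from -0.57 without BC183 to -0.38 without BC158. It was -0.37 with normexp background correction. SCNT Low differed from IVP by -0.30 (standard error 0.20), with 8 of 10 below. This smaller difference was -0.16 without BC250, -0.19 with normexp background correction and -0.13 with the session as a block. Because these are bulk samples, fewer cells of a type and less RNA per cell cannot be told apart for either gene.

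**Figure D1:**
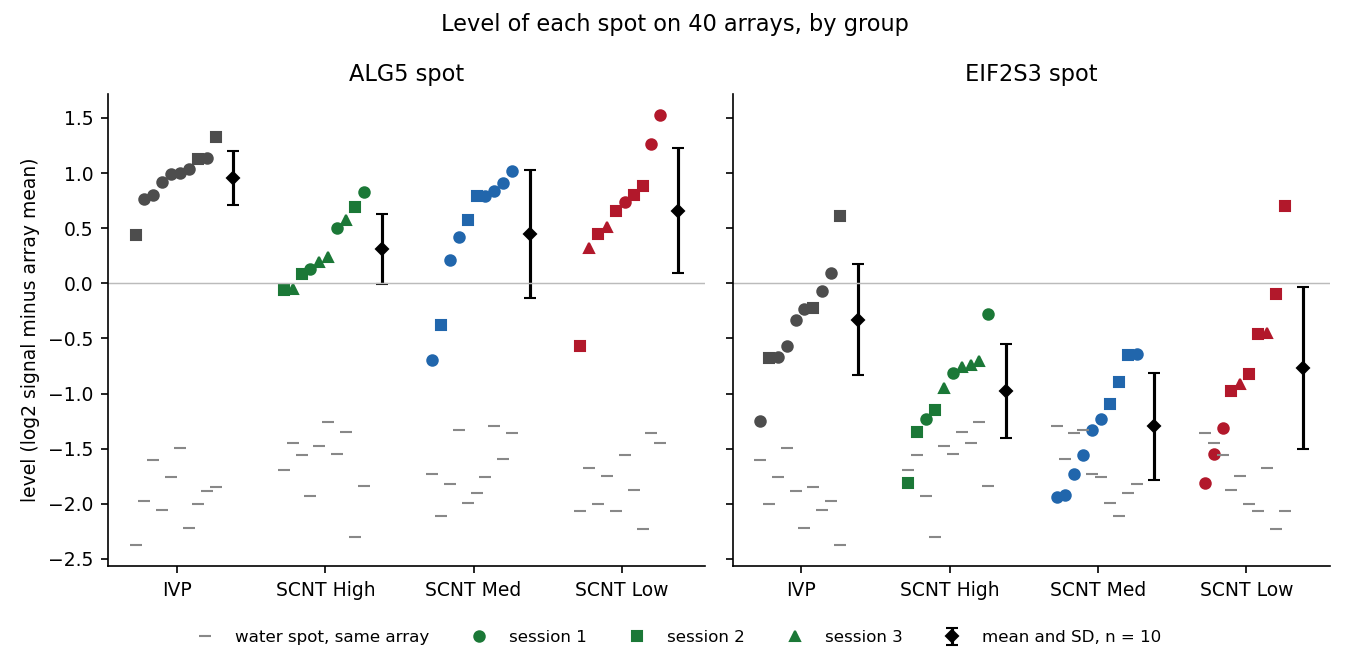
Level of the ALG5 spot (left) and the EIF2S3 spot (right) on each of the 40 arrays, as log2 signal minus the array mean, with 10 arrays per group in rising order. Circles, squares and triangles are sessions 1, 2 and 3, grey dashes are the water spots of the same arrays, and diamonds with bars are means and SDs. ALG5 stands above water on every array, whereas 7 EIF2S3 spots do not.

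Without the contrast that chose it, ALG5 can be compared between SCNT Med and SCNT Low. The study also compared these groups on the same arrays and listed ALG5 only for SCNT High against IVP. That it made no call for ALG5 here was therefore known before the test, which is not independent of that. The mean was lower in SCNT Med by 0.21 on the log2 scale (limma on the 20 arrays over all cDNA probes, standard error 0.25, 95% interval -0.72 to 0.30, unadjusted p = 0.405, adjusted p = 0.997). The direction was not settled. Of the SCNT Med arrays, 5 lay below the SCNT Low mean and 5 above it, and with the GAPDH and actin spots as reference the sign turned, to 0.10. In this comparison limma gave 0 calls at an adjusted p under 0.10, or 0% of the cDNA probes, and 436 probes (4.28%) at an unadjusted p under 0.05. Single arrays moved it. Without BC158 the difference was -0.08 and without BC250 it was -0.35. The sessions moved it as well, to -0.41 with the session as a block (adjusted p = 0.997 from limma). Within session 1 it was -0.68 (standard error 0.32, 7 against 3 arrays) and within session 2 it was -0.11 (standard error 0.45, 3 against 5 arrays).

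Within sessions, ALG5 was lower in SCNT High than in IVP both in session 1 (difference -0.46, standard error 0.21, 3 against 7 arrays) and in session 2 (-0.73, standard error 0.35, 3 against 3 arrays). SCNT Med also lay below IVP in both, by -0.45 (standard error 0.23) in session 1 and -0.64 (standard error 0.45) in session 2. SCNT Low did not keep a direction. In session 1 its 3 arrays had a mean of 1.18 and lay above IVP by 0.23 (standard error 0.24), whereas in session 2 its 5 arrays had a mean of 0.44 and lay below IVP by -0.52 (standard error 0.38). The lower mean of ALG5 in SCNT Low than in IVP therefore did not hold within session 1. BC250, BC30 and BF188 all belong to session 2, and without them the session 2 differences of ALG5 from IVP were -0.99 for SCNT High, -0.53 for SCNT Low (mean level 0.70 on 4 arrays) and -0.54 for SCNT Med. Session 3 had arrays of SCNT High and SCNT Low only, and ALG5 was there at 0.24 in SCNT High (n = 4) and 0.42 in SCNT Low (n = 2).

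EIF2S3 was a weaker spot. It was brighter than the water spot on all 10 IVP arrays, on 9 in SCNT High, on 8 in SCNT Low and on 6 in SCNT Med, or on 33 of 40 in all, and 21.6% of the cDNA probes were so on as few arrays or fewer. The 7 arrays on which it was not were BC107, BC122, BC123 and BC183 in SCNT Med, BC249 and BCSD80 in SCNT Low and BC252 in SCNT High. All of them but BC252 belong to session 1. The array also carries 3 control spots whose names begin with SOY and whose use is not given in the sources used here. EIF2S3 was brighter than each of these on 6 arrays of IVP, 2 of SCNT Low, 1 of SCNT High and 0 of SCNT Med, against 10, 9, 9 and 9 for ALG5. It was brighter than the dimmest of the 3 on 9 arrays of IVP, 7 of SCNT Low, 7 of SCNT High and 4 of SCNT Med. In IVP its mean level was -0.33, against -0.39 for the brightest of these control spots. Levels of EIF2S3 were therefore close to those of control spots in IVP as well, and in SCNT Med often below them. The sizes of its differences are uncertain.

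In IVP, the level of EIF2S3 ran from -1.25 on BF152 through a median of -0.28 to 0.61 on BF188. In SCNT Med, it ran from -1.94 on BC122 through a median of -1.28 to -0.64 on BC160. The groups overlapped between -1.25 and -0.64, where 5 SCNT Med arrays and 3 IVP arrays lay. In SCNT High, the level ran from -1.82 on BC252 through a median of -0.88 to -0.28 on BC242. In SCNT Low, it ran from -1.81 on BC249 through a median of -0.87 to 0.70 on BC250. SCNT Low covered the widest range of the 4 groups, and BC250 lay above every IVP array.

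The group means of EIF2S3, from high to low, stood in the order IVP, SCNT Low, SCNT High and SCNT Med, so that SCNT High and SCNT Med stood the other way round than for ALG5. In that order, they were -0.33 ± 0.50, -0.77 ± 0.74, -0.98 ± 0.43 and -1.30 ± 0.49 (mean ± SD, n = 10 each), where the water spot had means of -1.92, -1.80, -1.64 and -1.69. Neighbours in the order of EIF2S3 did not differ beyond their spread, as their means lay 0.44, 0.21 and 0.32 apart against pooled SDs of 0.63, 0.60 and 0.46. SCNT Med lay below IVP by more than the pooled SD of 0.49, with a difference of -0.97 (standard error 0.22). No fold is given, because the spot did not exceed water on 4 of the 10 SCNT Med arrays. All 10 SCNT Med arrays lay below the IVP mean, 5 of them below every IVP array. This contrast chose the probe, and 0.216% of all cDNA probes also had all 10 SCNT Med arrays below the IVP mean. On the 6 SCNT Med arrays with the spot above water, chosen by the measured level itself, the difference from IVP was -0.64, and with normexp background correction of all arrays it was -0.46. The offset of that correction narrows by itself the differences of so dim a spot. SCNT High differed from IVP by -0.65 (standard error 0.21), or -0.39 with normexp background correction, with 9 of 10 arrays below the IVP mean. SCNT Low differed from IVP by -0.44 (standard error 0.28), with 8 of 10 arrays below. The size in SCNT Low was not settled, as it was -0.21 on the arrays with the spot above water, -0.17 with normexp background correction, -0.70 with the session as a block and -0.60 without BC250.

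EIF2S3 can be compared without its own contrast between SCNT High and SCNT Low. Here too the study had compared the groups on the same arrays, and it listed EIF2S3 only for SCNT Med against IVP. The test is therefore not independent of the study's calls. The mean was lower in SCNT High by 0.21 on the log2 scale (limma, standard error 0.25, 95% interval -0.74 to 0.32, unadjusted p = 0.416, adjusted p = 1.0). Of the SCNT High arrays, 6 lay below the SCNT Low mean and 4 above it. Limma called 10 probes, or 0.0982% of all, at an adjusted p under 0.10 in this comparison, and 408 (4.01%) had an unadjusted p under 0.05. Without BC250 the difference of EIF2S3 was -0.05, and without BC249 it was -0.33.

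Within sessions this difference took opposite directions. In session 1, the levels of EIF2S3 in SCNT High (-1.23, -0.81 and -0.28) all lay above those in SCNT Low (-1.81, -1.55 and -1.31), with a difference of 0.79 (standard error 0.31). In session 2, the 3 SCNT High levels (-1.82, -1.35 and -1.15) all lay below the 5 of SCNT Low, which ran from -0.98 to 0.70, with a difference of -1.11 (standard error 0.36). Without BC250 it was -0.85 (standard error 0.28). In session 3, the difference was -0.11 (standard error 0.24). The share of cDNA probes with all SCNT High above all SCNT Low arrays in session 1 was 4.19%, and with all below in session 2 it was 1.09%. Without overlap in both sessions and in opposite directions there were 11 probes, or 0.108%. This pattern was chosen after its values were seen and was not tested. Of the 3 SCNT Low arrays of session 1, 2 had the EIF2S3 spot at or below water, whereas all 5 of session 2 stood above it.

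Against IVP, EIF2S3 was lower in SCNT Med in session 1 (difference -1.04, standard error 0.24, 7 against 7 arrays) and in session 2 (-0.78, standard error 0.40, 3 against 3 arrays). In session 1, only 3 of the 7 SCNT Med arrays had the spot above water, with mean levels of -1.48 for the spot and -1.56 for water, whereas in session 2 all 3 did, at a mean level of -0.88. SCNT High lay below IVP by -0.34 (standard error 0.32) in session 1 and by -1.34 (standard error 0.43) in session 2. SCNT Low lay below IVP by -1.13 (standard error 0.22) in session 1 and by -0.23 (standard error 0.48) in session 2. Without BC250, BC30 and BF188, the session 2 differences of EIF2S3 from IVP were -0.99 for SCNT High, -0.14 for SCNT Low and -0.42 for SCNT Med. The direction against IVP was thus the same in both sessions for each SCNT group, but the order of the SCNT groups was not. SCNT High minus SCNT Med was 0.70 in session 1 and -0.56 in session 2.

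**Figure D2:**
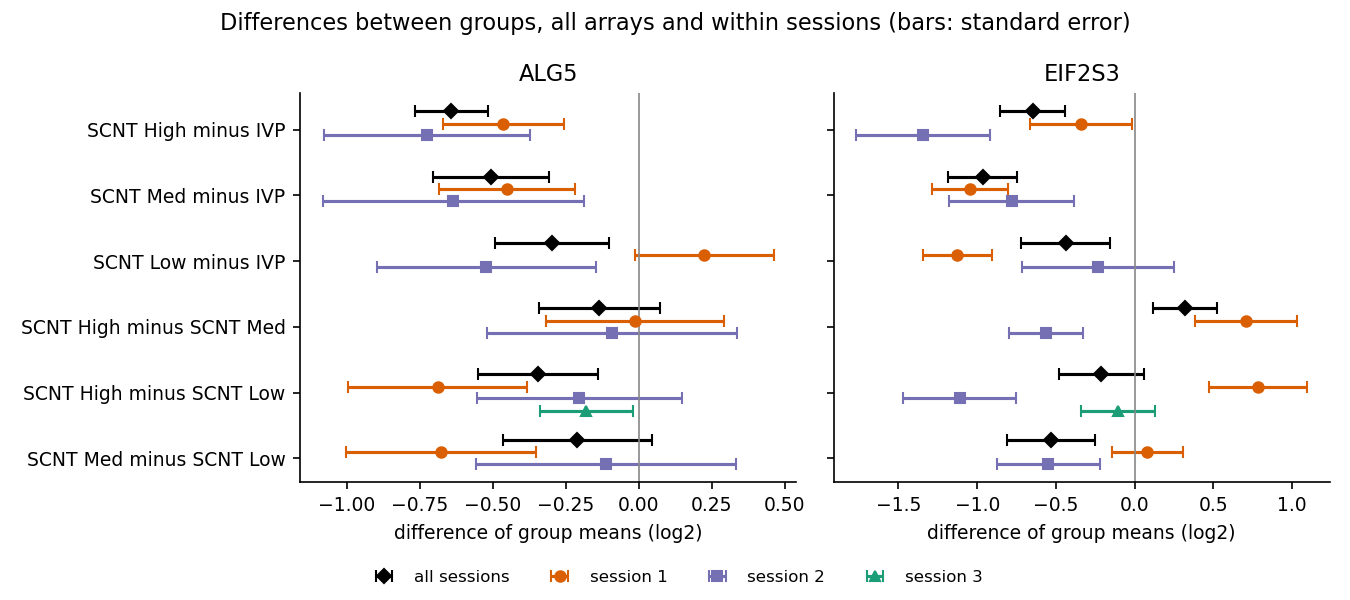
Differences of group means of ALG5 (left) and EIF2S3 (right) on the log2 scale, over all arrays (black diamonds) and within sessions 1, 2 and 3, with bars of 1 standard error. For EIF2S3, SCNT High minus SCNT Low lies at 0.79 in session 1 and -1.11 in session 2, and for ALG5, SCNT Low minus IVP lies at 0.23 and -0.52.

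The 2 genes were also compared from array to array within the groups, a measure that the choice of the members did not use. After removal of the group means, Pearson's r between ALG5 and EIF2S3 was -0.43 over the 40 arrays (two-sided permutation test within groups, 100000 resamples, p = 0.0137, adjusted p = 0.0433 over 17 relations), and Spearman's rho was -0.31 (permutation p = 0.0683, adjusted p = 0.27). The 17 relations include those of both genes with the array properties, which are given below without a p. Because those relations entered the adjustment, the adjusted p depends on them, and 0.0433 is not read as a call. The relation of ALG5 with EIF2S3 rested on few arrays. BC250 had the lowest ALG5 and the highest EIF2S3 of SCNT Low, and BF188 had the lowest ALG5 and the highest EIF2S3 of IVP. Without BC250 and BC158, the arrays farthest from the median of ALG5, r was -0.31 (permutation p = 0.0740). Without BC250, BC30 and BF188 it was -0.16 (permutation p = 0.406). By group of 10 arrays, r was -0.42 in IVP, -0.83 in SCNT Low and -0.38 in SCNT Med, but 0.59 in SCNT High, where BC252 was low and BC242 high in both genes. With deviations taken within sessions, r was -0.34 (permutation p = 0.0849). Among the correlations of ALG5 with all other cDNA probes, whose median was 0.06, 12% were at or below that with EIF2S3. Among those of EIF2S3 with all other cDNA probes, whose median was -0.05, 4.23% were at or below that with ALG5.

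**Figure D3:**
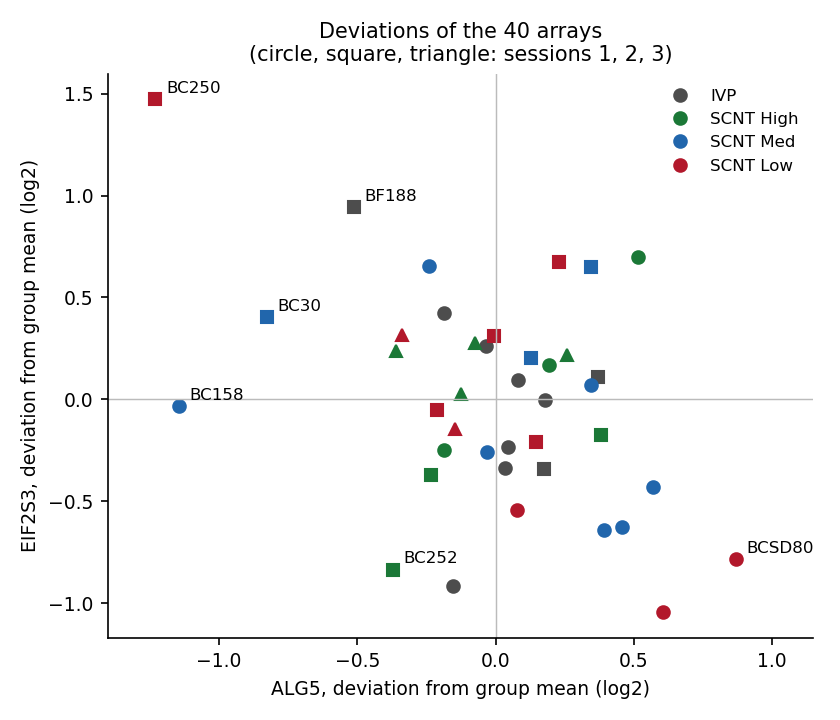
Deviation of EIF2S3 (vertical axis) against that of ALG5 (horizontal axis) from the group mean on the log2 scale, 1 point per array, coloured by group. Pearson's r is -0.43 over the 40 arrays, and BC250 and BF188 lie at the upper left.

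Array properties were set beside the levels as a description, with no p, because a level contains the mean log2 signal of its array and the deviation of an array is made from all its levels. Within groups, ALG5 had r = -0.47 (rho = -0.36) with the array's mean log2 signal, and EIF2S3 had r = 0.40 (rho = 0.29). Neither gene stood out in this, as 20.2% and 30.1% of the cDNA probes had an r as far from 0 or farther. With the root mean square deviation of the array, r was -0.54 for ALG5 (rho = -0.12) and 0.33 for EIF2S3 (rho = -0.07), where 25.7% and 54.7% of the probes had an r as far from 0 or farther. Without BC250 and BC30, the latter r were -0.20 and 0.00. The part of these properties in the levels of the genes was not tested.

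Both genes also varied with the spots around them on the membrane. All 8 spots adjacent to ALG5 correlated positively with it within groups, with r from 0.21 to 0.63 and a median of 0.44, and all 8 adjacent to EIF2S3 did so with r from 0.02 to 0.71 and a median of 0.41. Such correlations were usual on these membranes, since the median of this quantity over all cDNA probes was 0.53. ALG5 and EIF2S3 stood at percentiles 31.2 and 25.4 of it, so the p that follow do not set these genes apart from other spots. The mean of the adjacent spots correlated with ALG5 at r = 0.65 (rho = 0.60, permutation p = 2e-05 and 0.00013, adjusted p = 0.00034 and 0.00221), and with EIF2S3 at r = 0.52 (rho = 0.53, permutation p = 0.00042 and 0.00073, adjusted p = 0.00357 and 0.0062). Without the 2 farthest arrays, these r were 0.66 and 0.54. Around ALG5, the mean of the adjacent spots was lower in SCNT High than in IVP by -0.32, and around EIF2S3 it differed by 0.01 between SCNT Med and IVP. After subtraction of the median deviation of the surrounding spots, an alternative chosen after the data were examined, ALG5 differed by -0.50 between SCNT High and IVP, with 9 of 10 SCNT High arrays below the IVP mean, and EIF2S3 by -0.93 between SCNT Med and IVP.

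The spots most like each gene over the 40 arrays, after removal of group means, are named by accession because the files give no gene names. For ALG5 they were AW464570 (r = 0.75), BF041888 (0.73), AW462419 (0.73), AW466183 (0.71) and AW463135 (0.70), and the most opposite were BM366936 (-0.79), CN433996 (-0.76) and CR551617 (-0.75). For EIF2S3 they were BF044630 (r = 0.77), BF039970 (0.76), BF041967 (0.76), BF045052 (0.75) and BF044358 (0.75), and the most opposite were AW464975 (-0.65), BF039258 (-0.65) and AW463137 (-0.64). None of these 16 spots was adjacent to its gene on the membrane. The 5 spots most like EIF2S3 were dim, with mean levels between -1.48 and -0.94. After subtraction of the local median deviation, the r of the most alike spots was 0.46 to 0.61 for ALG5 and 0.54 to 0.65 for EIF2S3, and that of the most opposite was -0.58 to -0.46 and -0.49 to -0.31. The arrays share their deviations over many spots, and the middle 90% of the correlations lay between -0.55 and 0.50 for ALG5 and between -0.42 and 0.47 for EIF2S3. The lists of 5 and 3 spots are the ends of these distributions and are a description only.

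Of 103 genes listed for N-glycan assembly and translation initiation, only ALG5 and EIF2S3 could be tied to a spot, so that no other step of either pathway is described. Of 51 marker genes listed for the cell types of the conceptus and for maternal tissue, 4 could be tied to a spot. FN1 and APLP2, which the study located in endoderm, had their highest means in SCNT Med, at 2.69 ± 1.03 and 0.48 ± 0.55 (SD, n = 10). In SCNT Low they were lowest, at 1.38 ± 0.39 and -0.29 ± 0.27 (SD, n = 10). In IVP they were at 2.01 ± 0.49 and 0.02 ± 0.29 and in SCNT High at 1.45 ± 1.11 and 0.04 ± 0.71. PLIN2, a lipid droplet coat protein located in trophoblast, ran from -0.74 ± 0.46 in SCNT Low to 0.09 ± 0.55 in SCNT Med. The control spot of POU5F1, a gene of the embryonic disc, had group means between -0.39 and -0.05. It was brighter than water on 39 of 40 arrays, which was usual for the spots of these arrays. Within groups, r between FN1, APLP2 or PLIN2 and either gene lay between -0.18 and 0.07, and its smallest permutation p was 0.260 (adjusted p = 0.402). The part of the cell types of the tissue in the levels of ALG5 and EIF2S3 was not tested.

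The control spots of GAPDH and actin, genes often taken as references, were not level across the groups. GAPDH was highest in SCNT High (mean level 3.37), followed by SCNT Low (3.20), IVP (2.94) and SCNT Med (2.58). Actin had a mean of 2.58 in IVP and of 2.84 to 2.92 in the SCNT groups. Taking both as reference in place of the array mean therefore moved the difference of every probe from IVP, by -0.38 for SCNT High, -0.26 for SCNT Low and 0.05 for SCNT Med. On that scale ALG5 differed from IVP by -1.03 in SCNT High, -0.56 in SCNT Low and -0.46 in SCNT Med, and EIF2S3 by -1.03, -0.70 and -0.92. Lower means than in IVP were found for both genes in all 3 SCNT groups on either scale. Shifts of this size could not turn any of these signs, so the second scale adds no support. Both probes were also chosen against IVP, and all these differences share the IVP arrays. The order of SCNT High and SCNT Med for EIF2S3 turned, from 0.32 for SCNT High minus SCNT Med to -0.12.

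**Figure D4:**
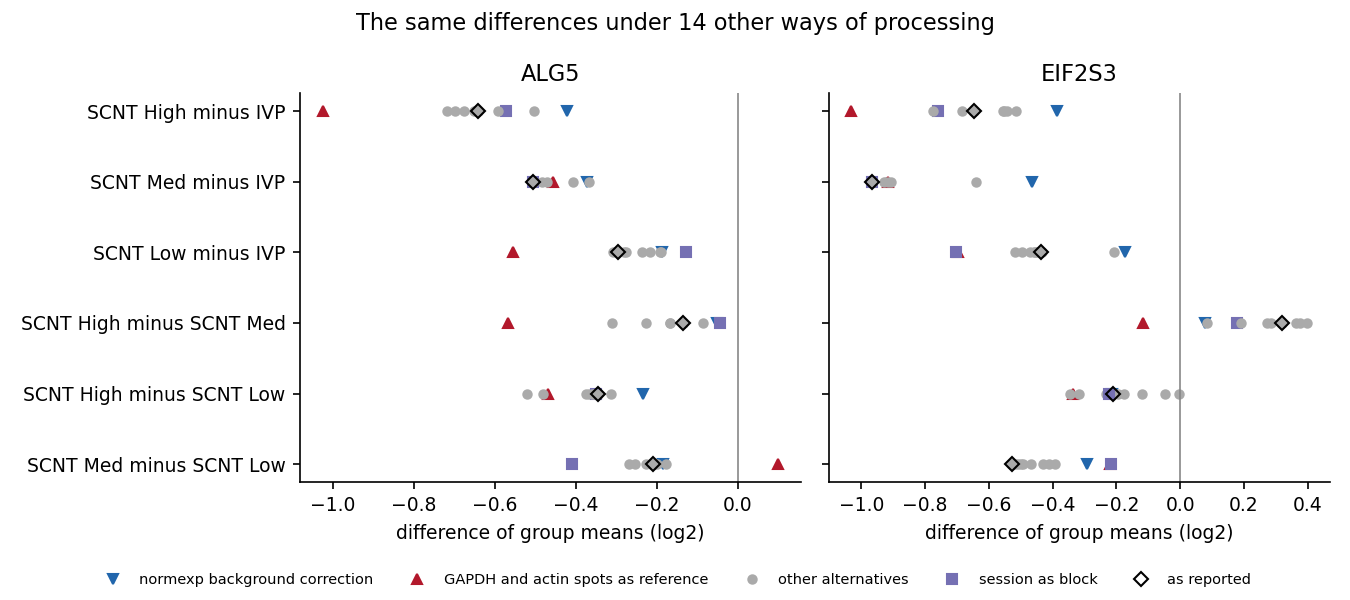
Differences of group means of ALG5 (left) and EIF2S3 (right) on the log2 scale as reported (open diamonds) and under 14 alternatives. All differences from IVP stay below 0, from -1.03 to -0.13 for ALG5 and from -1.03 to -0.17 for EIF2S3, while ALG5 in SCNT Med minus SCNT Low and EIF2S3 in SCNT High minus SCNT Med cross 0 with GAPDH and actin as reference.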

How the data were processed

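RNA of 40 extra-embryonic tissues was amplified, labelled with 33P and hybridised to nylon membranes, 1 conceptus per array, and quantified with ImaGene. What the authors deposited per spot is its mean intensity and the mean intensity of the pixels around it, neither subtracted nor normalized. Each deposited spot also has a shape score, not used here, and other marks for poor quality, which the ALG5 spot carried on BC268 and the EIF2S3 spot on BC271. A second deposited table holds log2 values made by the authors. Across 10184 probes, array differences in it match those of the log2 intensity (slope 1.00, r 1.00), which settles scale and direction. Column medians from -0.157 to 0.0598, and probe means up to 0.248 from 0, leave its centring partly unknown. The methods name mean-centring and log transformation.

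Here the log2 intensity was centred on the array's mean over the cDNA spots. The tests were made in R 4.3.3 with limma 3.58.1 (lmFit, eBayes, all cDNA probes, Benjamini-Hochberg, two-sided) in place of the SMVar program of the methods. They were also run on simulated arrays with independent noise. Those had neither sessions nor deviations shared between spots, so that run does not cover these features of the data. Replicates are separate conceptuses, some of which may share a recipient cow. Permutations within groups were run in Python 3.11.15 (numpy 2.4.6, scipy 1.17.1, pandas 2.3.3) and figures drawn with matplotlib 3.10.9. The members, gene lists and tests were chosen with earlier results of these data known. The spots named were the members, the 5 most and 3 least correlated spots, markers and references. The 154 unnamed spots were not used. Gene names rest on the study's pairing of 16 accessions with genes. Alternatives were background correction, normalization, centring, reference spots, filters on probes and arrays, array weights, a single model of all groups, the session as a block and single arrays left out. Local subtraction on the membrane, leaving out poor spots and leaving out the 3 arrays that stood apart were added after the data were examined.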

Additional observations from a re-analysis of the deposited data

How the results depend on the processing

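For the 12 differences of ALG5 and EIF2S3 between groups, 14 alternatives each gave 168 values, and 164 of them kept their sign, stayed on the same side of the threshold where there was a test, and otherwise moved by less than the pooled SD within groups. Part of this count was fixed in advance. The filter on probes and the single model of all groups cannot move a difference, and the water filter left out no array for ALG5. Leaving out the third session or blocking by session cannot move SCNT Med minus IVP, as both groups divide alike over the sessions. Leaving out poor spots touched only differences with SCNT Low. The table of the authors could hardly move a difference, as its array differences match those used here. The margin was also wide, as ALG5 in SCNT High minus SCNT Med ran from -0.57 to -0.05 and was counted as kept throughout. With the GAPDH and actin spots as reference, ALG5 in SCNT High minus IVP moved to -1.03, ALG5 in SCNT Med minus SCNT Low turned to 0.10 (limma, adjusted p = 0.849) and EIF2S3 in SCNT High minus SCNT Med turned to -0.12. The shift of all probes on that scale is given above. With normexp background correction (offset 50), EIF2S3 in SCNT Med minus IVP moved to -0.46. The offset is added before the log2 is taken and by itself narrows the differences of dim spots. Its share in the move, beside that of the background, was not tested. Over all alternatives, the adjusted p from limma lay between 0.783 and 1 for ALG5 in SCNT Med minus SCNT Low and between 0.985 and 1 for EIF2S3 in SCNT High minus SCNT Low. EIF2S3 in SCNT High minus SCNT Low was close to 0 with array weights, at -0.0026. Leaving out each array in turn changed the sign of 0 of the 12 differences. The correlation of ALG5 with EIF2S3 did not hold as firmly. It was -0.36 to -0.44 with the other ways of background correction, normalization or centring on the array, with the table of the authors, without the third session and with local subtraction. It was 0.0667 (permutation p = 0.728) with GAPDH and actin as reference, -0.3361 (p = 0.0849) with deviations within sessions, -0.2354 (p = 0.193) on arrays with EIF2S3 above water, -0.3112 (p = 0.074) without the 2 arrays farthest in ALG5, -0.1559 (p = 0.406) without BC250, BC30 and BF188, and -0.3058 (p = 0.0683) by ranks, all by permutation within groups. With 1 array left out it lay between -0.4952 and -0.2619, the latter without BC250 (permutation p = 0.124). The number of probes called by limma at an adjusted p under 0.10 lay between 0 and 4 for SCNT Med and SCNT Low, against 0 as reported, and between 0 and 43 for SCNT High and SCNT Low, against 10. No paired analysis was made, because the groups are separate conceptuses and the labels do not say which of them shared a recipient. The counts planned for pathway lists could not be made, as 2 of their 103 genes could be tied to a spot. Local background limits EIF2S3 more than ALG5, with median ratios of spot to background of 6.90 and 13.2.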
